A study of Sus scrofa with 15 samples.

Results

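Soy infant formula and cow's milk formula with added estradiol were compared directly in the testis of male piglets. The members of the comparison are the 3 libraries of soy-fed piglets (Soy) and the 3 libraries of piglets fed cow's milk formula with estradiol (M + E2), which are 6 of the 15 libraries of the series. They were chosen by the diet named in each column of the count table. Of the 30476 genes of the table, 15634 passed the filter on low counts and were tested. All piglets nursed until postnatal day 2, and the testes were frozen at sacrifice on postnatal day 21. Soy piglets received a commercial soy-based formula, which carries isoflavones such as genistein and daidzein. M + E2 piglets received a commercial formula based on cow's milk, with estradiol added to the food bowls as the positive control for an estrogen. The labels give a serum range that this dosing aimed at, and the serum levels reached were not analysed here. The other groups received bought sow milk from a bowl (Sow), the milk formula alone (Milk) or the milk formula with genistein (M + G), and hold 3 libraries each. The comparison asks how far the testis of a soy-fed piglet resembles that of a piglet given an estrogen. Soy and M + E2 differ in the base of the formula as well as in isoflavones and in estradiol, so these cannot be told apart in the direct comparison. The values in Milk, which shares its base with M + E2, stand beside those of some of the named genes for that reason. Each library is taken to be from 1 piglet, and the piglets of the study were drawn from many litters of Dutch Landrace Duroc sows kept off soy.

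The testis of a young piglet holds tubules of Sertoli cells and early germ cells, wrapped by contractile peritubular cells, and an interstitium rich in Leydig cells. Leydig cells make androgens, and in the pig large amounts of estrogen, from cholesterol that the StAR protein brings into the mitochondria. Estrogens act through the receptors ESR1 and ESR2 in the testis itself, and they also restrain the pituitary gonadotropins that drive Leydig and Sertoli cells. Isoflavones are plant phenols that bind estrogen receptors with lower affinity than estradiol.

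Between 7998950 and 9017628 reads were counted on genes in the Soy libraries and between 6097552 and 8364498 in the M + E2 libraries. Across genes, the log2 levels of any pair of the 6 libraries had r between 0.940 and 0.978. Levels are given as CPM, reads scaled to a common normalized library size, which compares libraries but not genes of different length. Soy libraries are listed in the order Soy unnumbered, Soy 2 and Soy 3, since the column of the first carries no number, and M + E2 libraries in the order 1, 2 and 3. The log2 fold changes are Soy minus M + E2, so a positive value is a higher level in Soy. Leydig, Sertoli and germ cell markers were detected in all 6 libraries. 2 Soy libraries stood apart from the rest of the 6. In Soy 3 the summed level of 11 markers of peritubular and other smooth muscle was 6241 CPM, against 1149 and 1321 CPM in the other Soy libraries and 1253 to 1607 CPM in M + E2. Milk 2 and M + G 2 were also high, at 5097 and 4285 CPM, unlike the other libraries of the series. In Soy unnumbered the summed level of the 59 genes of a ribosomal protein list was 73349 CPM, against 35188 and 30555 CPM in the other Soy libraries and 31827 to 47915 CPM in M + E2. Milk 1 and Milk 2, at 70854 and 71314 CPM, and Sow, at 73459 to 130075 CPM, were as high or higher. Milk 3, at 30635 CPM, and M + G, at 35088 to 51500 CPM, were not. In bulk tissue, fewer cells of a type and less RNA per cell cannot be told apart.

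A total of 23 genes, 0.147% of those tested, passed an adjusted p of 0.05 with a change of at least 2-fold (edgeR's quasi-likelihood test, Benjamini-Hochberg adjustment over all genes tested). Of these, 19 were higher in Soy (0.122% of genes tested) and 4 were lower (0.0256%). The higher genes were 7 unnamed identifiers in the mitochondrial run of the annotation, NDUFA6 of respiratory complex I, the amino acid enzymes HPD, ASL and GOT1, the glucosidase GBA3, the zinc transporter SLC30A8, C1orf116, CIB4, TMEM144, ISOC1, HSPB8 and ENSSSCG00000049464. The lower genes were PSIP1, TVP23A, THBS4 and LINGO1. The lowest adjusted p was 0.0299, close to the threshold. The count depended on single libraries. Leaving out Soy 2 or any 1 of the M + E2 libraries left 0 calls (1403 to 1686 genes at an unadjusted p below 0.05), leaving out Soy unnumbered left 3, and leaving out Soy 3 gave 47.

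Before the threshold, 2028 genes (13.0%) had an unadjusted p below 0.05, of which 1309 (8.37%) were higher and 719 (4.60%) lower in Soy. In 3149 genes (20.1%) the 3 Soy libraries did not overlap with the 3 M + E2 libraries, with 1614 (10.3%) higher and 1535 (9.82%) lower in Soy. All 23 called genes were among them. In the same fit, 0 genes were called in M + E2 against Milk (2772 genes, 17.7%, at an unadjusted p below 0.05, edgeR's quasi-likelihood test) and 0 in Soy against Milk (381 genes, 2.44%). The study used edgeR's exact test with the same thresholds and does report genes that differ between M + E2 and Milk. That test was not run here against Milk.

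**Figure D1:**
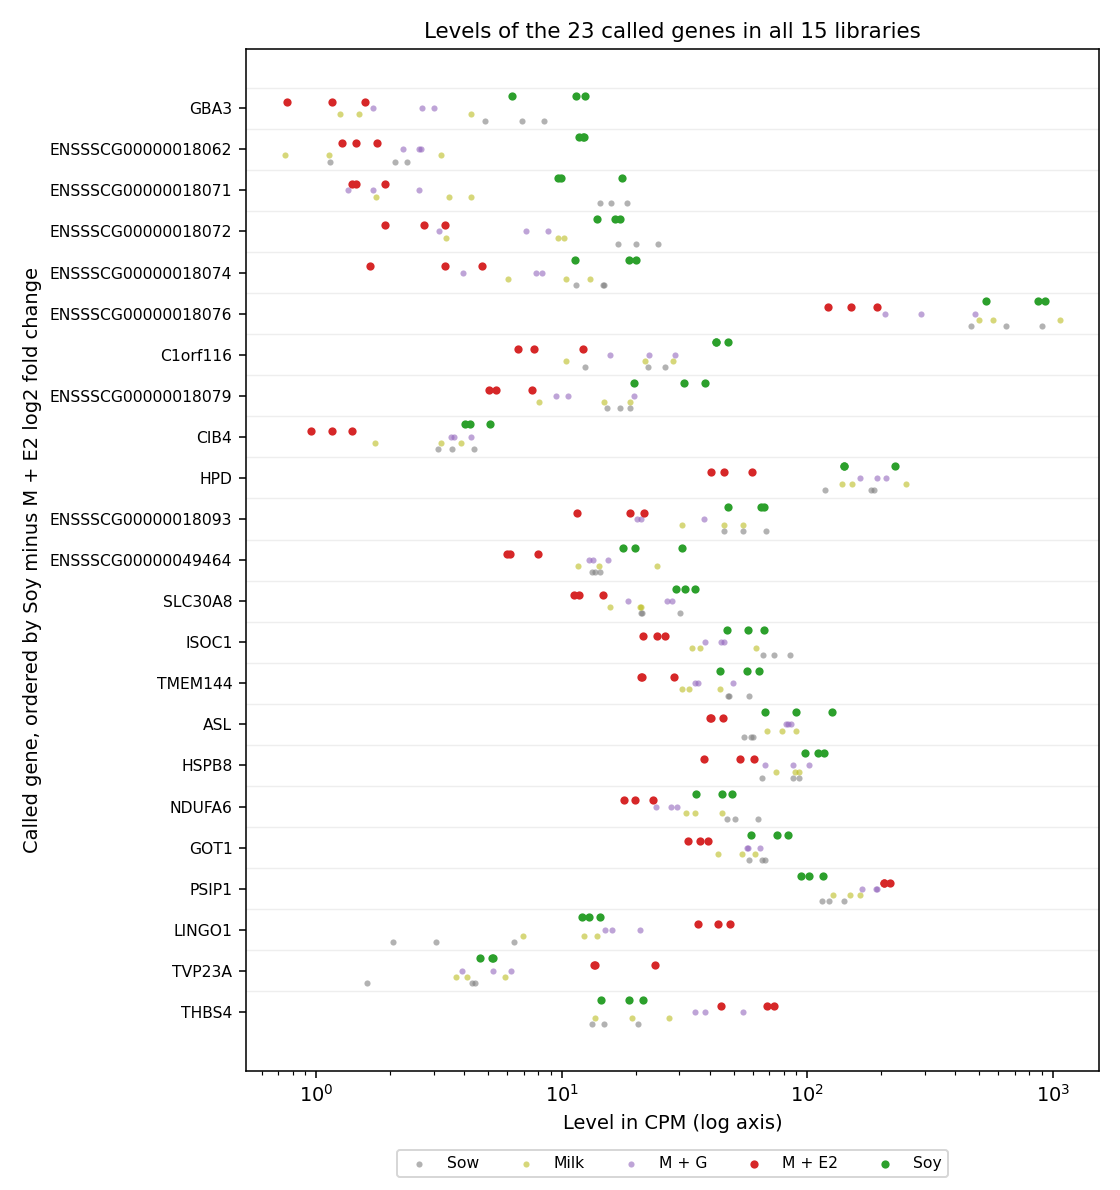
Levels of the 23 called genes in all 15 libraries, in CPM on a log axis, with 1 point per library and the diet groups in separate colours; genes are ordered by the log2 fold change, Soy minus M + E2. The red M + E2 points and the green Soy points do not overlap in any gene, and in 15 of the 23 genes the M + E2 points also lie outside all other libraries. The genes were called on the Soy and M + E2 values shown.

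The levels of the called genes were also set beside those of the remaining diets. These genes were called on Soy against M + E2, so a separation of these groups came with the choice. The shares over all genes tested were not computed for the counts below, which describe the called genes only. In 15 of the 23 genes the 3 M + E2 libraries lay outside the range of all 12 other libraries. In 3 genes, ENSSSCG00000018062, ENSSSCG00000018079 and C1orf116, the 3 Soy libraries lay outside the range of the 12 others, and ENSSSCG00000018079 was the 1 gene in which both were so. In 6 genes neither group stood outside. The fitted distance from Milk was larger in M + E2 than in Soy for 19 of the 23 genes and larger in Soy for 4. These distances share the Milk libraries, and the difference between them is the Soy against M + E2 comparison itself.

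**Figure D2:**
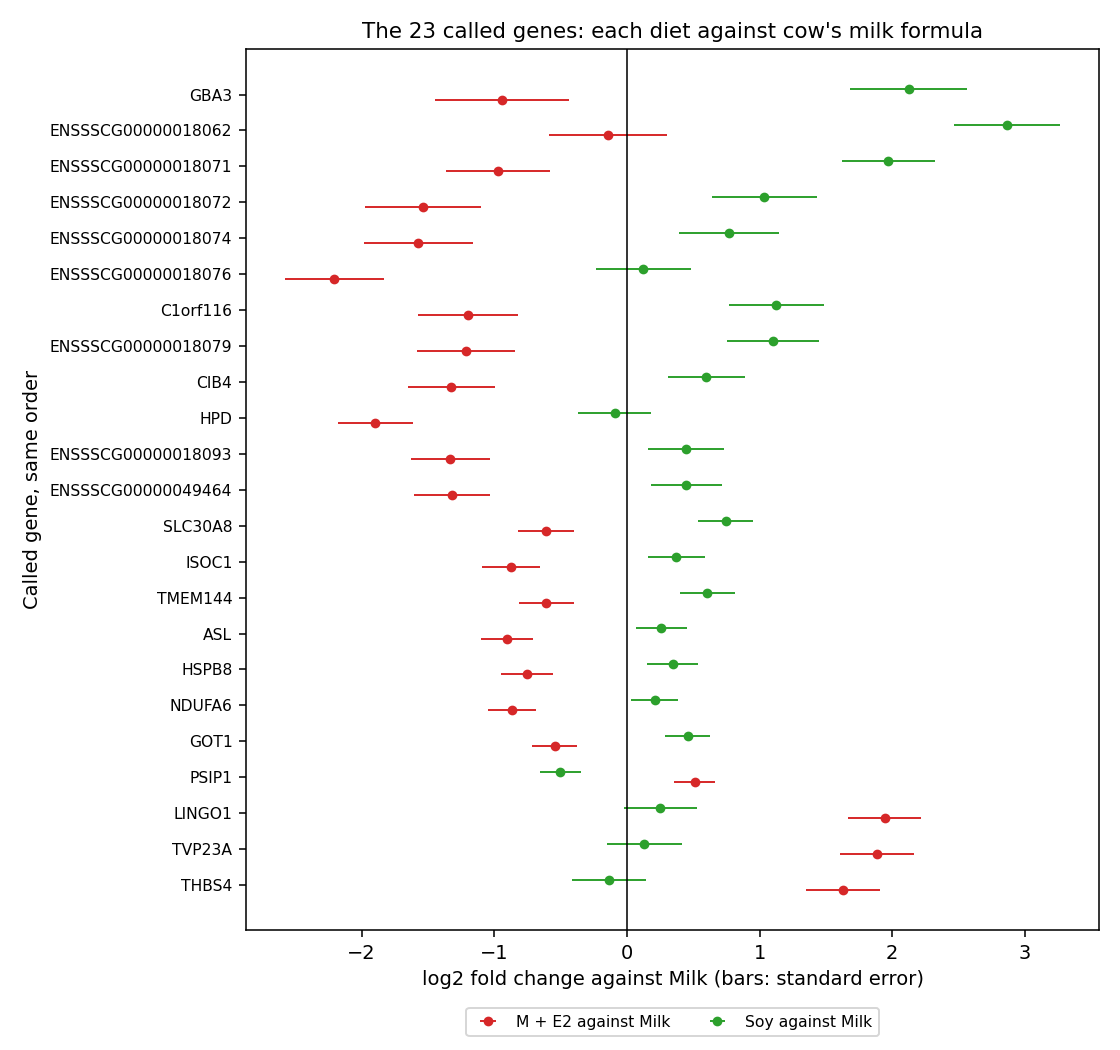
The log2 fold change of the 23 called genes in M + E2 against Milk (red) and in Soy against Milk (green), with bars for the standard error and the genes in the order of the plot of levels. HPD, ENSSSCG00000018076, LINGO1, TVP23A and THBS4 lie near 0 in Soy and far from 0 in M + E2, while ENSSSCG00000018062 lies near 0 in M + E2.

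The named protein genes of the mitochondrial genome had higher levels in Soy, though none of them was called. The mitochondrial genome encodes core subunits of the respiratory chain together with the transfer and ribosomal RNAs that translate them. All 13 named protein genes had a higher mean level in Soy, all 13 had libraries that did not overlap (10.3% of all genes tested) and all 13 had an unadjusted p below 0.05 (8.37% of all genes tested). Their log2 fold changes ran from 0.82 to 1.52, with a median of 1.04, where the median over all genes tested was 0.03. The 13 genes took 8.18%, 9.65% and 6.72% of the counted reads in the Soy libraries and 5.41%, 4.48% and 4.36% in the M + E2 libraries. The lowest share among the Soy libraries was therefore above the highest of M + E2. Without Soy 3 the median was 1.17 and without Soy unnumbered 1.02.

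ND2, a subunit of complex I, had 3949, 4588 and 3268 CPM in the Soy libraries and 1688, 1346 and 1496 CPM in the M + E2 libraries. The Milk libraries, at 3507, 1687 and 2287 CPM, spread over both groups. Its log2 fold change was 1.38 (SE 0.299, adjusted p = 0.0987 by edgeR's quasi-likelihood test), which did not pass. ATP8, a subunit of the ATP synthase, had 293, 366 and 255 CPM in Soy and 115, 77.4 and 125 CPM in M + E2, with a log2 fold change of 1.52 (adjusted p = 0.101, same test). ATP8 shares part of its sequence with the neighbouring ATP6, so reads can be split between them.

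The unnamed identifiers of the same run carried the calls. The annotation lists 37 mitochondrial genes, of which 22 are transfer RNAs and 2 ribosomal RNAs, and the table holds 24 identifiers without a name in the run. Of the 19 that could be tested, 18 were higher in Soy (53.2% of all genes tested), 17 had an unadjusted p below 0.05 (8.37%), 16 did not overlap (10.3%) and 7 were called (0.122%). Their log2 fold changes ran from −0.03 to 3.01 with a median of 1.78. The reads were short and these genes abut or overlap their neighbours on long shared precursors, so a read in an unnamed identifier may belong to the gene beside it.

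ENSSSCG00000018062, which the study lists as the transfer RNA gene MT-TV, had 11.8, 12.2 and 12.3 CPM in the Soy libraries and 1.45, 1.77 and 1.27 CPM in the M + E2 libraries. The Soy libraries were within a narrow range and stood above every other library of the series. The levels in Milk, at 3.21, 0.744 and 1.13 CPM, spanned those of M + E2. The difference was 8.03-fold, with a log2 fold change of 3.01 (95% interval 2.14 to 3.87, adjusted p = 0.0299 by edgeR's quasi-likelihood test). Against Milk, the log2 fold change was 2.87 in Soy and −0.14 in M + E2.

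ENSSSCG00000018076 took the most reads of the called genes, with 871, 926 and 535 CPM in Soy and 192, 121 and 151 CPM in M + E2. Milk had 1071, 570.2 and 501 CPM, so that the M + E2 libraries stood below both diets. This was a log2 fold change of 2.33 (SE 0.376, adjusted p = 0.0371, same test). ENSSSCG00000018079 had 31.4, 38.3 and 19.7 CPM in Soy and 7.56, 5.07 and 5.38 CPM in M + E2, with Soy above and M + E2 below all libraries of the other diets (log2 fold change 2.32). The remaining called identifiers of the run were ENSSSCG00000018071, ENSSSCG00000018072, ENSSSCG00000018074 and ENSSSCG00000018093, with log2 fold changes of 2.94, 2.57, 2.34 and 1.78. ENSSSCG00000018071 had 17.6, 9.94 and 9.61 CPM in Soy and 1.45, 1.39 and 1.90 CPM in M + E2, where the Sow libraries, with 14.2, 15.9 and 18.5 CPM, overlapped with Soy. The unnamed identifier with the most even level between the diets was ENSSSCG00000018061, with a log2 fold change of −0.03 (95% interval −0.77 to 0.71).

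**Figure D3:**
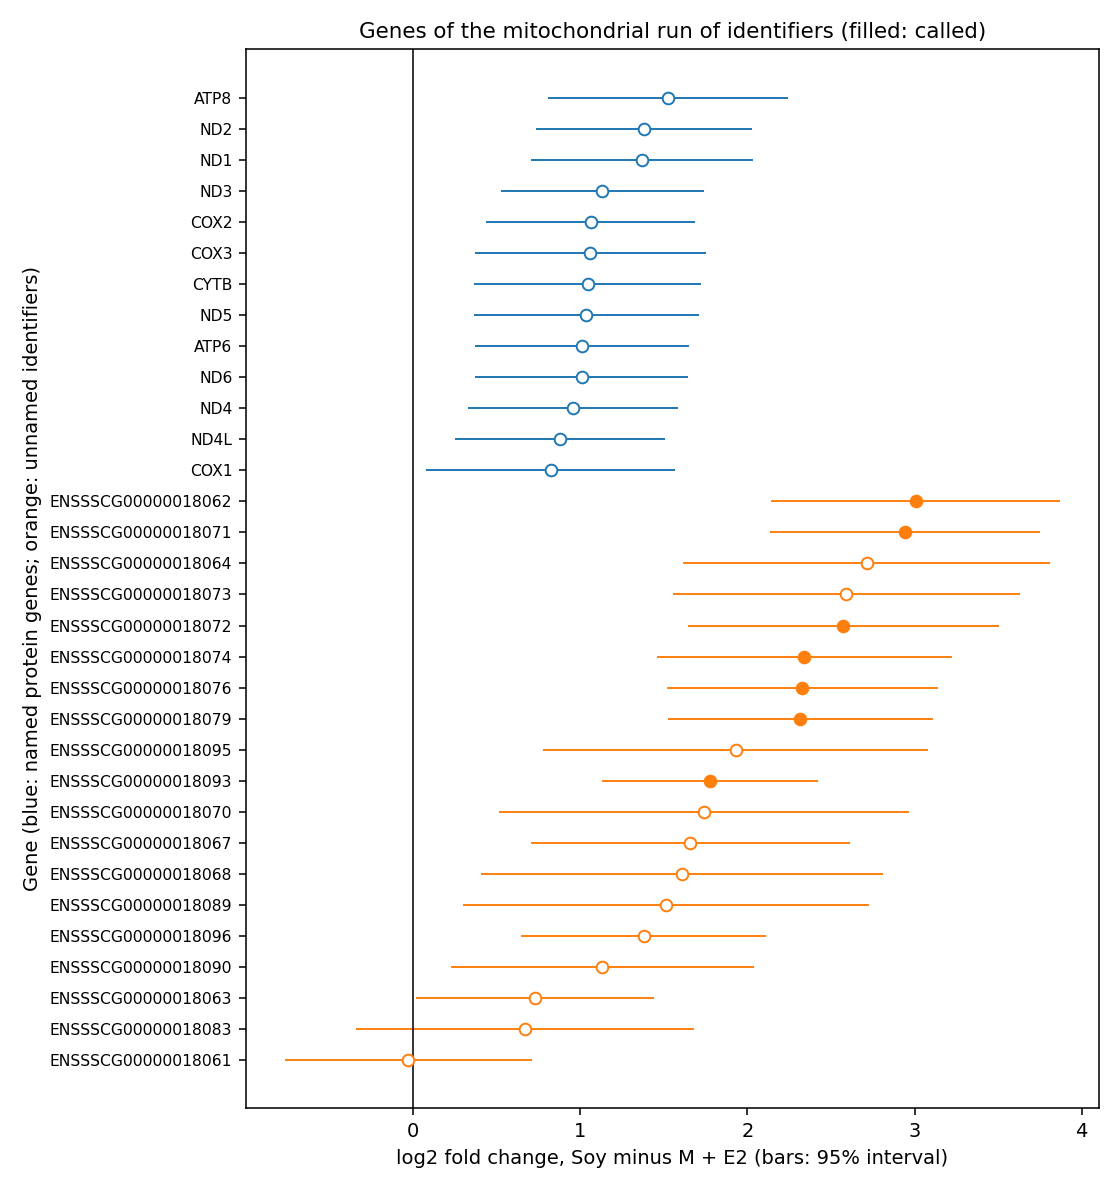
Log2 fold change, Soy minus M + E2, with its 95% interval for the 13 named protein genes (blue) and the 19 tested unnamed identifiers (orange) of the mitochondrial run; filled points are called genes. All 13 named genes lie between 0.82 and 1.52, and the 7 filled points lie at 1.78 and above.

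Nuclear genes for oxidative phosphorylation were also higher in Soy, with a smaller median. Of 63 tested nuclear genes for oxidative phosphorylation, 63 had a higher fitted level in Soy (53.2% of all genes tested), 30 had an unadjusted p below 0.05 (8.37%), 21 did not overlap (10.3%) and 1, NDUFA6, was called (0.122%). Over the list, the median log2 fold change was 0.60. The summed level of these genes was 12612, 8419 and 6117 CPM in the Soy libraries and 5477, 6271 and 6107 CPM in M + E2. Soy unnumbered was the highest, and Soy 3 lay within the range of M + E2. The median was 0.28 without Soy unnumbered and 0.80 without Soy 3. The summed ribosomal protein genes, given above, were also highest in Soy unnumbered, and their part in this result was not tested.

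NDUFA6 (ENSSSCG00000000045, chromosome 5 from 6562074 to 6567321), an accessory subunit of complex I, had 49.2, 44.8 and 35.1 CPM in Soy and 23.5, 19.8 and 17.9 CPM in M + E2. The Milk libraries, with 45.0, 34.7 and 32.0 CPM, overlapped with Soy and lay above M + E2. Its log2 fold change came to 1.08 (95% interval 0.69 to 1.47, adjusted p = 0.0376 by edgeR's quasi-likelihood test). NDUFB11, another accessory subunit of complex I, had 98.8, 99.0 and 60.5 CPM in Soy and 35.9, 35.6 and 29.5 CPM in M + E2, without overlap. Its log2 fold change of 1.35 did not pass the threshold (adjusted p = 0.0671, same test).

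Among the called genes higher in Soy, 3 encode enzymes of amino acid metabolism. HPD (ENSSSCG00000009805, chromosome 14 from 30845608 to 30857658), the hydroxyphenylpyruvate dioxygenase of tyrosine breakdown, had 141, 227 and 140.3 CPM in the Soy libraries and 59.4, 40.5 and 45.8 CPM in the M + E2 libraries. The Milk libraries, with 253, 138 and 152 CPM, lay at the level of Soy, and the M + E2 libraries were the lowest of the series. On the log2 scale the difference was 1.80 (SE 0.284, adjusted p = 0.0371 by edgeR's quasi-likelihood test), and it was −1.90 in M + E2 against Milk and −0.09 in Soy against Milk.

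ASL (ENSSSCG00000007738, chromosome 3 from 16637481 to 16646869), the argininosuccinate lyase of the urea cycle and of arginine synthesis, had 67.2, 126 and 89.4 CPM in Soy and 40.3, 40.5 and 45.5 CPM in M + E2. The M + E2 libraries lay close together and below all others, while the Soy libraries spread widely. The difference was 2.24-fold (log2 fold change 1.16, adjusted p = 0.0376, same test). GOT1 (ENSSSCG00000010537, chromosome 14 from 110608422 to 110635825), the cytosolic aspartate aminotransferase, had 75.3, 83.4 and 58.8 CPM in Soy and 36.6, 39.3 and 32.7 CPM in M + E2. GOT1 was just past the 2-fold limit, with a 95% interval of the log2 fold change of 0.63 to 1.37, and lost its call under another scaling of the libraries.

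GBA3 (ENSSSCG00000008754), the cytosolic glucosidase known to split plant glycosides, had the largest fitted change of the called genes. It had 12.4, 11.4 and 6.29 CPM in Soy, 1.16, 0.760 and 1.58 CPM in M + E2 and 4.28, 1.49 and 1.25 CPM in Milk. The Soy libraries were above all Milk and M + E2 libraries, and the Sow libraries, at 4.84, 8.47 and 6.90 CPM, overlapped with Soy. Soy differed from M + E2 by 3.07 on the log2 scale (95% interval 2.05 to 4.09, adjusted p = 0.0371 by edgeR's quasi-likelihood test). Against Milk the log2 fold change was 2.12 in Soy and −0.94 in M + E2.

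Of 20 tested genes for lysosomal and related glycosidases, which cut sugars from glycoproteins and lipids, 14 were higher in Soy, 5 of them with an unadjusted p below 0.05 (8.37% of all genes tested), and none was called. The list had a median log2 fold change of 0.11. GUSB, the beta-glucuronidase that releases glucuronic acid from conjugates, had 237, 666 and 659 CPM in Soy and 151, 199.6 and 264 CPM in M + E2, with Soy unnumbered inside the range of M + E2 (log2 fold change 1.34, adjusted p = 0.138, same test). FUCA1, a fucosidase, had 84.0, 106 and 102 CPM in Soy and 59.0, 47.1 and 48.0 CPM in M + E2 without overlap (log2 fold change 0.92, adjusted p = 0.0958, same test).

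The other called genes higher in Soy have varied roles. C1orf116 (ENSSSCG00000032446), known as an androgen-regulated gene, had 47.4, 42.2 and 42.6 CPM in Soy and 12.2, 7.73 and 6.64 CPM in M + E2. Milk, with 21.8, 10.4 and 28.3 CPM, overlapped with M + E2, and Soy was above every other library of the series. This was a log2 fold change of 2.32 (adjusted p = 0.0376 by edgeR's quasi-likelihood test), made up of 1.13 in Soy and −1.20 in M + E2 against Milk. SLC30A8 (ENSSSCG00000006011, chromosome 4 from 21517009 to 21557747), a zinc transporter best known from insulin granules, had 31.8, 29.2 and 35 CPM in Soy and 11.2, 14.7 and 11.7 CPM in M + E2. The M + E2 libraries were below all others, and Soy overlapped with 1 Sow library and with no library of the other diets (log2 fold change 1.35, SE 0.209).

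HSPB8 (ENSSSCG00000009844, chromosome 14 from 33626125 to 33639824), a small heat shock protein, had 111, 117 and 98.0 CPM in Soy and 60.8, 53.2 and 38.0 CPM in M + E2 (log2 fold change 1.10). TMEM144 (ENSSSCG00000008874, chromosome 8 from 47133684 to 47202409) had 56.6, 63.3 and 44.1 CPM in Soy and 28.5, 21.0 and 21.2 CPM in M + E2 (log2 fold change 1.22). For both genes the M + E2 libraries were below every other library of the series. ISOC1 (ENSSSCG00000014258, chromosome 2 from 131857126 to 131877873), which holds an isochorismatase domain, had 57.1, 66.4 and 46.9 CPM in Soy and 21.4, 26.2 and 24.4 CPM in M + E2 (log2 fold change 1.24). CIB4 (ENSSSCG00000008564, chromosome 3 from 112415709 to 112457253), of the calcium and integrin binding family, was low in all libraries, with 4.24, 5.08 and 4.03 CPM in Soy and 1.16, 1.39 and 0.949 CPM in M + E2 (log2 fold change 1.92). The unnamed ENSSSCG00000049464 had 30.9, 19.8 and 17.8 CPM in Soy and 5.96, 7.98 and 6.12 CPM in M + E2 (log2 fold change 1.77). In these 3 genes, too, M + E2 was lower than all libraries of the other diets. The adjusted p of the genes of this paragraph ran from 0.0371 to 0.0431 (edgeR's quasi-likelihood test).

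The 4 called genes lower in Soy were high in M + E2. THBS4 (ENSSSCG00000014117, chromosome 2 from 88729531 to 88780759), a thrombospondin of the extracellular matrix, had 21.5, 14.5 and 18.7 CPM in the Soy libraries and 72.8, 68.3 and 44.5 CPM in the M + E2 libraries. Soy lay within the range of Milk (27.2, 13.6 and 19.3 CPM), while the M + G libraries, with 38.4, 34.8 and 54.8 CPM, reached into the range of M + E2. Its log2 fold change came to −1.76 (95% interval −2.37 to −1.16, adjusted p = 0.0371 by edgeR's quasi-likelihood test).

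LINGO1 (ENSSSCG00000001872, chromosome 7 from 57684591 to 57890121), a transmembrane protein known from neurons, where it restrains myelination, had 14.3, 12.1 and 12.9 CPM in Soy and 48.3, 43.1 and 35.8 CPM in M + E2. Every M + E2 library stood above the other 12 libraries, and Soy was close to Milk (log2 fold change 0.25 in Soy against Milk). The log2 fold change of the direct comparison was −1.69 (SE 0.271, adjusted p = 0.0371, same test). TVP23A (ENSSSCG00000027101, chromosome 3 from 32275481 to 32318598), a Golgi membrane protein, had 4.65, 5.19 and 5.22 CPM in Soy and 24, 13.6 and 13.6 CPM in M + E2, the latter again above all other libraries. PSIP1 (ENSSSCG00000005183, chromosome 1 from 207173264 to 207216437), a chromatin-bound coactivator, had 116, 102 and 94.2 CPM in Soy and 218, 204 and 206 CPM in M + E2. It had a narrow spread in both groups and a log2 fold change of −1.01, at the 2-fold limit. The Milk libraries, with 149, 164 and 128 CPM, lay between Soy and M + E2. Against Milk, the log2 fold change of PSIP1 was 0.51 in M + E2 and −0.50 in Soy. PSIP1 lost its call without any 1 of the 6 libraries, with log2 fold changes from −1.10 to −0.95 and adjusted p from 0.0451 to 0.193 (by edgeR's quasi-likelihood test).

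The study names several genes under M + E2 against soy formula. It does so in a passage on comparisons with Milk and gives directions with respect to milk formula. Which comparison was meant is therefore unclear. Of these genes, ENSSSCG00000018062 was called in Soy against M + E2, as given above. ENSSSCG00000046140 had 1, 0 and 4 reads in the Soy libraries and 5, 54 and 158 reads in the M + E2 libraries. The fitted log2 fold change was −5.23 (unadjusted p = 0.00693, adjusted p = 0.208 by edgeR's quasi-likelihood test), and with so few reads its size depends on the fit. Milk had 26.0, 1.74 and 10.2 CPM, and every group other than Soy held libraries that differed more than 10-fold. GLB1L2, a beta-galactosidase-like protein, had 20.8, 33.0 and 18.9 CPM in Soy and 16, 18.9 and 31.6 CPM in M + E2. Both diets overlapped, and both lay above the 3.36, 5.83 and 9.65 CPM of Milk (log2 fold change 0.12, 95% interval −0.92 to 1.16). Against Milk, the log2 fold change of GLB1L2 was 1.93 in Soy and 1.81 in M + E2. That of ENSSSCG00000046140 was −5.84 in Soy and −0.60 in M + E2, and none of these passed. CXCL13 was not analysed here.

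Genes of steroid synthesis were mostly higher in Soy, but none was called. Of 17 tested genes of the pathway and of Leydig cell identity, 16 had a higher fitted level in Soy (53.2% of all genes tested), 6 of them had an unadjusted p below 0.05 (8.37%) and 6 did not overlap (10.3%). HSD17B3, named after its values were seen because it was the exception in direction, had a log2 fold change of −0.25. Over the list, the median log2 fold change was 0.58. The summed level of the list was 41224, 43519.5 and 30831 CPM in Soy and 24480, 23186 and 22469.6 CPM in M + E2. The lowest Soy library was above the highest M + E2 library. The median stayed between 0.46 and 0.71 over all settings tried.

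STAR (ENSSSCG00000034942, chromosome 15 from 48377597 to 48385398), which carries cholesterol into mitochondria, had 4777, 4625 and 3677 CPM in the Soy libraries and 1332, 1686 and 779.7 CPM in the M + E2 libraries. All M + E2 libraries were below all other libraries of the series, though Milk 2 came close at 1783 CPM. On the log2 scale the difference was 1.78 (95% interval 0.96 to 2.61, adjusted p = 0.0987 by edgeR's quasi-likelihood test), a 3.44-fold difference that did not pass the threshold.

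CYP19A1, the aromatase that turns androgens into estrogens, had 4436, 4691 and 3600.0 CPM in Soy and 2212, 1799 and 1759 CPM in M + E2. The pig carries several closely related aromatase genes, between which short reads can be split. Soy differed from M + E2 by 1.14 on the log2 scale (SE 0.327, adjusted p = 0.183, same test), with no overlap between the diets. CYP11A1, which cleaves the cholesterol side chain, had 2506, 3079 and 2053 CPM in Soy and 1612, 1705 and 1164 CPM in M + E2 (log2 fold change 0.77, adjusted p = 0.337). CYP17A1, the hydroxylase and lyase on the way to androgens, had 7497, 11309.7 and 8927 CPM in Soy and 6952, 6644 and 5936 CPM in M + E2 (log2 fold change 0.51, 95% interval −0.24 to 1.25, adjusted p = 0.551). In each of these 3 genes Milk 2 lay within or below the range of M + E2.

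**Figure D4:**
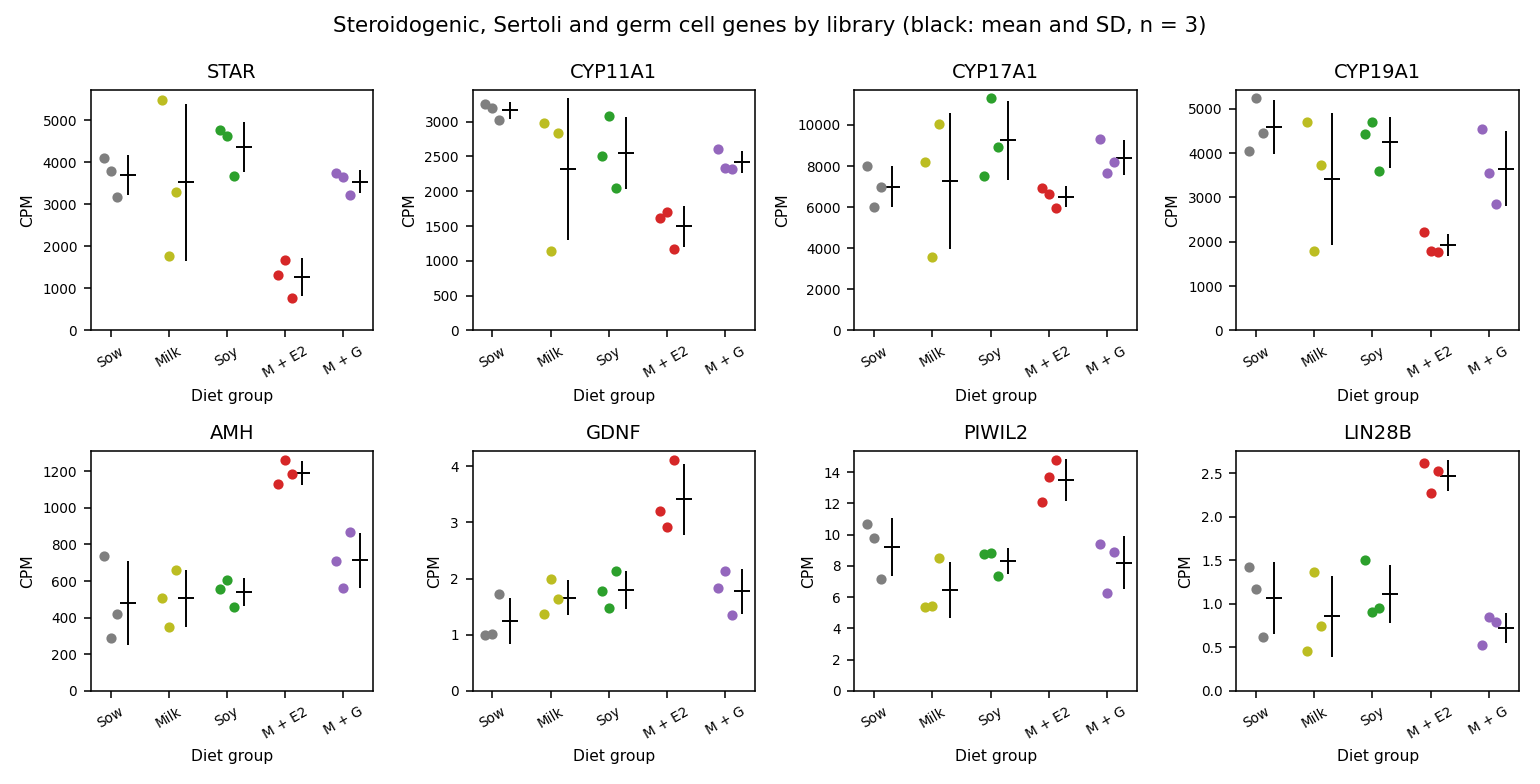
Levels in CPM of 4 genes of steroid synthesis (upper row) and 4 Sertoli or germ cell genes (lower row) in each library of the 5 diet groups, with the mean and SD of each group (n = 3) in black. In the upper row the M + E2 points lie below the Soy points and in the lower row above them; none of these 8 genes passed the adjusted threshold in the direct comparison.

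Cholesterol, the substrate of steroid synthesis, is made by a chain of enzymes that run from acetate to sterols and is taken up by the LDL receptor. Of 22 tested genes of cholesterol synthesis and uptake, 20 had a higher fitted level in Soy, 16 had an unadjusted p below 0.05 (8.37% of all genes tested), 14 did not overlap (10.3%) and none was called. The list had a median log2 fold change of 0.84, which stayed between 0.66 and 1.00 over the settings tried. FDFT1, which makes squalene, had 429, 341 and 286 CPM in Soy and 193, 142 and 162 CPM in M + E2 (log2 fold change 1.09, adjusted p = 0.102 by edgeR's quasi-likelihood test). MSMO1, a sterol oxidase, had 1103, 692 and 437 CPM in Soy and 233, 295 and 189.8 CPM in M + E2 (log2 fold change 1.64, adjusted p = 0.119, same test). For both genes Soy unnumbered was the highest of the 6 libraries.

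Genes of estrogen reception had no common direction between Soy and M + E2. Of 24 tested receptors, cofactors and known estrogen targets, 13 were higher and 11 lower in Soy, 1 had an unadjusted p below 0.05 (13.0% of all genes tested) and none was called. Over the list, the median log2 fold change was 0.04 (−0.20 to 0.15 over the settings tried), against 0.03 over all genes tested. ESR1, the main nuclear estrogen receptor, had 13.7, 16.1 and 15.9 CPM in Soy and 16.1, 14.9 and 21.1 CPM in M + E2 (log2 fold change −0.19, 95% interval −0.69 to 0.30, adjusted p = 0.748 by edgeR's quasi-likelihood test). The groups overlapped, and the interval spanned 0. ESR2, the second estrogen receptor, was near the limit of detection, with 1.37, 0.339 and 0.593 CPM in Soy and 0.872, 1.14 and 1.58 CPM in M + E2 (log2 fold change −0.70, adjusted p = 0.540, same test). RARA, a retinoic acid receptor and estrogen target, was the 1 gene of the list below an unadjusted p of 0.05, with 72.0, 84.1 and 93.3 CPM in Soy and 118, 122 and 109.6 CPM in M + E2 (log2 fold change −0.48, adjusted p = 0.209, same test).

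The list for oxidation and conjugation of estrogens and isoflavones held 17 tested genes. AHR, AHRR, ABCG2 and SUMF1 are in the list but are not enzymes of these steps. Of the 17 genes, 13 were higher in Soy, 6 with an unadjusted p below 0.05 (8.37% of all genes tested). SUMF1 was among the 6. The median log2 fold change of the list was 0.43 (0.21 without Soy unnumbered). HSD17B2, which inactivates estradiol to estrone, had 151, 82.8 and 78.0 CPM in the Soy libraries and 15.1, 23.8 and 1.79 CPM in the M + E2 libraries. The levels in M + E2 differed more than 10-fold among themselves, and Milk 2, at 18.6 CPM, lay inside their range. This was a log2 fold change of 2.95 (95% interval 1.28 to 4.62, adjusted p = 0.160 by edgeR's quasi-likelihood test), which did not pass. HSD17B7, which acts both on estrone and in cholesterol synthesis, had 40.0, 27.4 and 20.9 CPM in Soy and 14.8, 16.1 and 11.4 CPM in M + E2 (log2 fold change 1.06, adjusted p = 0.174, same test).

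Sertoli cell genes were mostly lower in Soy than in M + E2. Of 19 tested markers, 16 were lower, 7 of them with an unadjusted p below 0.05 (4.60% of all genes tested), 11 were lower without overlap (9.82% of all genes tested) and none was called. The list had a median log2 fold change of −0.50, which stayed between −0.60 and −0.41 over the settings tried. The summed level of the list was 5423, 5397 and 4174 CPM in Soy and 7926, 7683 and 8558 CPM in M + E2.

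AMH (ENSSSCG00000035812, chromosome 2 from 76415564 to 76418315), the hormone of immature Sertoli cells, had 557, 604 and 457 CPM in Soy and 1133, 1262 and 1183 CPM in M + E2. The M + E2 libraries were above all others of the series, and Soy was within the range of Milk (509, 349 and 662 CPM). Its log2 fold change came to −1.14 (95% interval −1.74 to −0.55, adjusted p = 0.132 by edgeR's quasi-likelihood test), a 2.21-fold difference that did not pass the threshold. GDNF, a growth factor by which Sertoli cells maintain spermatogonia, had 1.78, 1.47 and 2.13 CPM in Soy and 3.20, 2.91 and 4.11 CPM in M + E2 (log2 fold change −0.93, adjusted p = 0.230, same test).

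Of 14 tested germ cell genes, 12 were lower in Soy, 3 with an unadjusted p below 0.05 (4.60% of all genes tested), and the median log2 fold change was −0.42. PIWIL2, which guards the germline against transposons, had 8.75, 8.81 and 7.35 CPM in Soy and 12.1, 13.7 and 14.8 CPM in M + E2 (log2 fold change −0.70, adjusted p = 0.241 by edgeR's quasi-likelihood test). LIN28B, an RNA-binding protein of immature cells, had 1.5, 0.903 and 0.949 CPM in Soy and 2.62, 2.28 and 2.53 CPM in M + E2 (log2 fold change −1.15, adjusted p = 0.245, same test). The M + E2 libraries were the highest of the series in both genes. The summed level of the list did not separate the groups, with 240.2, 297 and 428 CPM in Soy and 351, 394 and 407 CPM in M + E2.

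Factors that set the fate of the gonad were lower in Soy in 10 of 14 tested genes, with a median log2 fold change of −0.25. Over all genes tested, 53.2% were higher in Soy. Of the lower factors, 3 had an unadjusted p below 0.05 (4.60% of all genes tested), and none was called. SIX2, a developmental transcription factor, had 4, 2 and 0 reads in Soy and 9, 11 and 11 reads in M + E2 (log2 fold change −2.31, adjusted p = 0.159 by edgeR's quasi-likelihood test). The groups did not overlap, but all counts were low. GATA6, a factor of Sertoli and Leydig cells, had 92.2, 109 and 125 CPM in Soy and 162, 174 and 171 CPM in M + E2 (log2 fold change −0.64, adjusted p = 0.202, same test). FOXL2, the ovarian fate factor, had 3, 0 and 0 reads in Soy and 3, 3 and 7 reads in M + E2 and was too low to test.

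Smooth muscle markers had higher fitted levels in Soy through 1 library. All 11 tested markers had a fitted log2 fold change above 0, with a median of 0.83, but 0 of them were free of overlap, and the median was −0.21 without Soy 3. ACTG2, a smooth muscle actin, had 10.7, 23.7 and 347 CPM in the Soy libraries and 7.70, 17.2 and 14.2 CPM in the M + E2 libraries (log2 fold change 3.28, adjusted p = 0.282 by edgeR's quasi-likelihood test). CNN1, a calponin, had 18.9, 29.6 and 288 CPM in Soy and 15.6, 30.1 and 29.3 CPM in M + E2, and its log2 fold change of 2.16 was −0.05 without Soy 3. Endothelial markers were also highest in Soy 3, with a summed level of 1837 CPM against 716 and 855 CPM in the other Soy libraries and 954 to 1245 CPM in M + E2. Their median log2 fold change was 0.09, and −0.24 without Soy 3.

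Summed immune cell markers overlapped between the diets. The summed macrophage markers were at 380.0 to 547 CPM in Soy and 340.2 to 478 CPM in M + E2, and those of T, B and NK cells at 130.0 to 246 CPM and 156 to 202 CPM. Of the 12 tested macrophage genes and the 13 tested lymphocyte genes, none had an unadjusted p below 0.05. Summed erythroid markers, TFRC included, were 767 to 1355 CPM in Soy and 379 to 739 CPM in M + E2, which did not overlap. TFRC is not specific to red cells, and the sum without it was not computed. Of the 11 tested members, 1 did not overlap, which was TFRC (10.3% of all genes tested were higher in Soy without overlap). The erythroid list had a median log2 fold change of 0.40, which was −0.18 without Soy 3. TFRC, the transferrin receptor by which cells take up iron, had 387, 230.2 and 142 CPM in Soy and 117, 121 and 93.9 CPM in M + E2 (log2 fold change 1.19, adjusted p = 0.187 by edgeR's quasi-likelihood test). SLC4A1, the anion exchanger of red cells, had 4, 4 and 6 reads in Soy and 4, 11 and 48 reads in M + E2 (log2 fold change −2.06, adjusted p = 0.235, same test), which was −0.78 without M + E2 3. Epithelial markers had a summed level of 168 to 332 CPM in Soy and 70.9 to 108 CPM in M + E2, although 7 of the 9 tested were lower in Soy. KRT8, a keratin, made up much of this sum, with 152, 313 and 171 CPM in Soy and 65.1, 85.1 and 50.2 CPM in M + E2 (log2 fold change 1.67, adjusted p = 0.149, same test). Lymphoid chemokines had a median log2 fold change of −0.21, and CCL22 had 0.683, 1.24 and 1.42 CPM in Soy and 2.91, 2.41 and 2.00 CPM in M + E2.

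Signalling, growth and stress lists had medians near that of all genes. Their median log2 fold changes were 0.09 for inhibin, activin and BMP signalling, −0.10 for the insulin-like growth factor axis, 0.10 for glucose sensing, −0.13 for interferon-stimulated genes, −0.13 for the cell cycle and 0.19 for immediate early genes, and none of these lists held a called gene. For the inhibin, growth factor and cell cycle lists the sign of the median turned in at least 1 of the other settings, and the median of the growth factor axis was −0.47 without Soy 3. The summed immediate early genes were at 1461 to 2039 CPM in Soy and 1192 to 1313 CPM in M + E2, which did not overlap. Of its 20 tested genes, 15 were higher and 5 lower in Soy. In 5 of the higher genes the libraries did not overlap (10.3% of all genes tested), and 3 had an unadjusted p below 0.05 (8.37%). INHBA, an activin subunit, had 109.6, 118 and 95.1 CPM in Soy and 184, 159 and 187 CPM in M + E2 without overlap (log2 fold change −0.72, adjusted p = 0.271 by edgeR's quasi-likelihood test). GHR, the growth hormone receptor, had 33.2, 32.1 and 38.5 CPM in Soy and 20.5, 25.7 and 16.9 CPM in M + E2 (log2 fold change 0.72, adjusted p = 0.172, same test). IRS2, an insulin signalling adaptor, had 10.9, 10.4 and 10.8 CPM in Soy and 27.2, 23.6 and 20.7 CPM in M + E2 (log2 fold change −1.15). HK2, a hexokinase of glycolysis, had 17.4, 46.9 and 35.5 CPM in Soy and 16.9, 13.8 and 12.6 CPM in M + E2 (log2 fold change 1.21, adjusted p = 0.220, same test). Of 59 tested genes of the ribosomal protein list, 50 were higher in Soy but 0 had an unadjusted p below 0.05. The list includes SYVN1, whose name is not that of a ribosomal protein. The list median of 0.25 became −0.25 without Soy unnumbered.

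**Figure D5:**
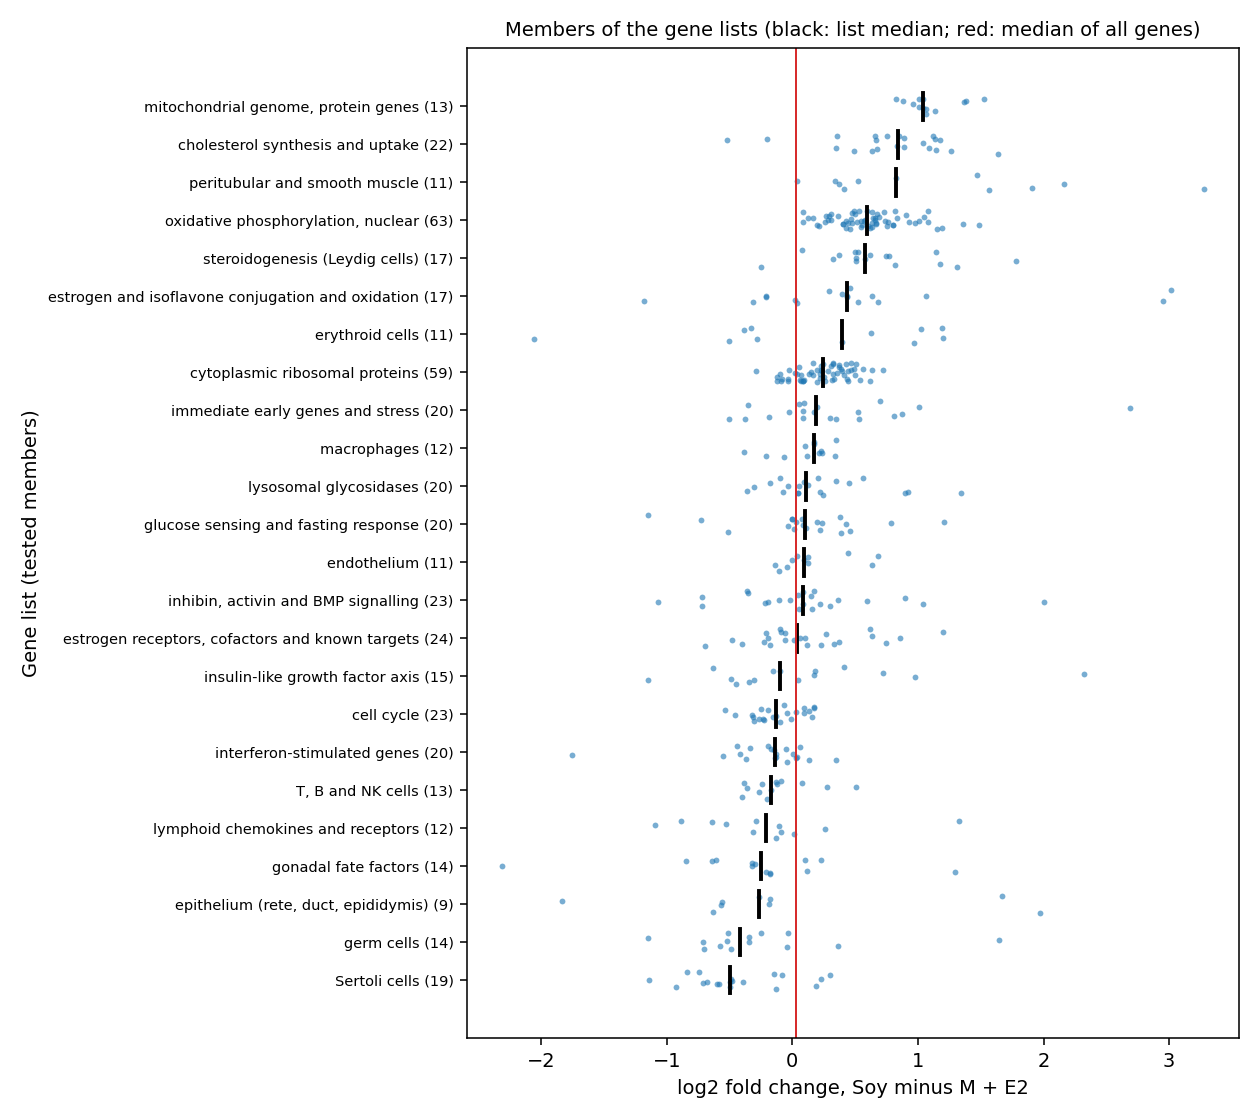
Log2 fold change, Soy minus M + E2, of the tested members of 24 gene lists, with 1 point per gene, a black bar at the median of each list and a red line at the median of all 15634 genes tested (0.03). Lists of the mitochondrial genome (median 1.04) and cholesterol synthesis (0.84) lie at the top and Sertoli cell genes (−0.50) at the bottom; the smooth muscle median of 0.83 rests on Soy 3.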

How the data were processed

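Testis RNA was sequenced by the authors as short single-end reads in 15 libraries, each taken here to be from 1 piglet. They deposited counts of reads per gene for each library, not normalized and not pooled. Per the study's methods, the reads were trimmed and mapped in the CLC Genomics Workbench, first to a curated porcine gene library and then to the Ensembl pig genome (Sscrofa11.1). Whether the deposited counts hold all reads or those left after the first step, and whether counting used strand, is not given in the sources used here. Reads shared by overlapping or near-identical genes can therefore be misplaced.

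The count table lists 30476 genes, 16446 of them with a symbol, and no libraries were identical. A further 798 identifiers took their name from a gene name table. Positions are gene spans of RefSeq on Sscrofa11.1, matched for 12366 of the tested genes. The analysis used R (4.3.3), edgeR (4.0.16), DESeq2 (1.42.0) and limma (3.58.1). After edgeR's filterByExpr (minimum count 10) and TMM scaling, a quasi-likelihood F test was run in a single fit of 5 groups over 14 libraries. Sow 2 was left out of this fit because the study excluded it, which leaves 2 Sow libraries. A gene counted as called when it changed at least 2-fold with an adjusted p (Benjamini-Hochberg) of 0.05 or less. CPM values use the TMM-scaled library size. Intervals are 95%. P-values measure the spread between libraries, which are taken as piglets.

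The genes named are all called genes, the genes the study names for the comparison of Soy with M + E2 (other than CXCL13, which was not analysed here), the 2 tested members with the lowest p of each of 24 gene lists, and steroid, estrogen receptor and gonadal fate genes set by name. The lists hold 588 entries, of which 517 are in the table. The members and lists were chosen with earlier results of these data known. The script was tested on simulated data. Alternatives covered the scaling, the tool, the filter, the samples in the fit, the fold minimum, each library left out, and the replicate number as a block.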

Additional observations from a re-analysis of the deposited data

How the results depend on the processing

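With 3 libraries per diet, 6097552 to 9017628 counted reads each and adjusted p near the threshold, the calls depend on the tool and on single libraries. The 23 called genes kept their direction in each of the 15 refits that gave them a value, which was all 15 for 20 of them; ENSSSCG00000018062, GBA3 and CIB4 had too few reads for the refit with at least 10 counts in every library. The number called (higher and lower in Soy in parentheses) was 143 (113 and 30) with the DESeq2 Wald test, 203 (129 and 74) with edgeR's exact test on the 6 libraries, 51 (44 and 7) without the filter on low counts and 10 (8 and 2) in a fit of the 6 libraries alone. The exact test is the one named in the study's methods. Of the 23, 22, 22, 22 and 8 were called again in the fits just listed. The cause was not tested. It was 22 with DESeq2 size factors, where GOT1 lost its call, 23 with all 15 libraries, 19 with at least 10 counts in every library and 27 without the fold minimum. Leaving out 1 library each gave 0 to 47 calls (0 to 43 higher, 0 to 4 lower): 3 without Soy unnumbered, 47 without Soy 3 and 0 without Soy 2 or any M + E2 library. Of the 23, 20 kept the call in 1 of these 6 fits, 2 (ENSSSCG00000018071 and ASL) in 2, and PSIP1 in none. Leaving out 1 library turned the direction of 3 uncalled genes: the log2 fold change of GLB1L2 ran from −0.17 (without Soy 2) to 0.49 and was −0.05 without M + E2 1, that of CNN1 ran from −0.047 (without Soy 3) to 2.66, and that of CD163 from −0.0091 (without Soy 3) to 0.52. The main fit did not pair samples by replicate number. The deviations of same-numbered libraries had r of −0.016 and −0.138, within the −0.152 to 0.230 of all Soy and M + E2 pairs. So few values cannot exclude a pairing. With the replicate number as a block, over the numbered libraries, 2 genes were called (2 higher, 0 lower), against 0 (0 higher, 0 lower) in the same libraries with no block (1459 genes at an unadjusted p below 0.05, edgeR's quasi-likelihood test).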
